A study of Drosophila melanogaster with 6 samples.

Results

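The genes described here are 40 genes of the cell division cycle of Drosophila melanogaster, chosen by name: 16 genes of DNA replication, 6 genes that control entry into S phase (called G1/S control below) and 18 genes of mitosis. All 40 names were found among the 17908 genes of the deposited count table, and all 40 had enough counts to be tested. The choice used no measured value, but it was made with earlier results of these data known.

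Polyadenylated RNA of larvae was sequenced in 6 libraries, 2 for each of 3 genotypes, in a study of genes affected by METTL16, an m6A methyltransferase of RNA that in human cells modifies the spliceosomal U6 RNA. The control larvae, written fiomut/cyo and abbreviated wt in the labels, were not wild type, since they carried 1 fiomut chromosome over CyO, a balancer with many inversions. The mutant larvae carried fiomut on both second chromosomes and were heterozygous for a U6 mutation (fiomut/fiomut with U6mut/U6+). The rescue larvae had the same alleles as the mutant plus an element written [U6+] on 1 of the fiomut chromosomes. All 3 genotypes thus carried at least 1 fiomut chromosome, and the U6 mutation was present in mutant and rescue but not in control. The age, stage and sex of the larvae, the number of larvae in a library, and the nature of the fiomut and [U6+] alleles, have no entry in the labels. No label says whether libraries of the same genotype came from separate cultures, so the p-values rest on the spread between these samples alone, and that spread may be technical.

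To copy its DNA before it divides, a cell commonly marks its origins with the origin recognition complex. It loads the Mcm2 to Mcm7 helicase ring with the help of the Cdt1 protein Double parked. It then fires these origins under the kinase Cdk2 with cyclin E. The transcription factor E2f1 with its partner Dp switches on many replication genes, and the retinoblastoma protein Rbf holds E2f1 in check. Mitosis needs a different set of proteins, led by Cdk1 with the mitotic cyclins and its activating phosphatase String. In fly larvae most differentiated tissues, such as salivary gland, fat body and gut, grow by endocycles, in which S phases follow each other without mitosis, whereas imaginal disc cells, neuroblasts and germ cells divide. Replication genes are thus used by more kinds of larval cells than mitosis genes are.

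The 6 libraries held 15983161 to 17847161 counts. CG7544, which RefSeq names as METTL16, had 22 to 52 counts per library and no call between any groups, so the genotype labels could not be checked by its RNA level. The larval storage protein gene Lsp1beta, a marker of larval fat body, took 1.76 to 4.02% of the counts, with no call between groups. Lsp2, a storage protein gene that fat body switches on late in larval life, fell by 2.13 on the log2 scale in mutant against control (adjusted p = 0.00803) and rose by 1.98 in rescue against mutant (adjusted p = 0.0114). These are the directions of most of the 40 genes, and the part of stage in their differences was not tested. The share of counts on the large mitochondrial ribosomal RNA was 11.6 and 8.62% in control, against 4.56 and 3.49% in the mutant libraries and 8.22 and 7.40% in rescue. Levels are therefore given as CPM, counts per 1000000 of a library size that the TMM method corrects for composition. A gene is called where edgeR's quasi-likelihood test over all 11866 tested genes gave an adjusted p under 0.05. The control libraries differed from each other over these genes, with 34 of 40 lower in control 1 than in control 2 and a median log2 difference of -0.27, against -0.02 over all genes tested. In bulk larvae, fewer cells of a type and less RNA per cell cannot be told apart.

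The 40 genes were expressed at moderate levels. In control their mean FPKM, a level per gene length, ran from 3.80 for Mcm7 to 58.3 for PCNA, with a median of 11.4 against 6.70 over all genes tested. PCNA, the sliding clamp that holds the polymerase on DNA, and RnrS, the small subunit of ribonucleotide reductase, stood highest, at 58.3 ± 1.22 and 41.8 ± 0.488 FPKM (SD, n = 2). The next, Dp, polo and Cdk1, lay at 25.0 ± 0.886, 23.3 ± 0.658 and 23.2 ± 1.50 FPKM, and polo and Cdk1 did not differ beyond their spread. The origin recognition genes formed a low group, with Orc4 at 6.09, Orc1 at 5.50, Orc5 at 5.10, Orc6 at 4.95 and Orc2 at 3.99 FPKM. Cyclin E, at 5.32 ± 0.309 FPKM, lay among them, far below cyclin B at 20.6 ± 3.40 and cyclin A at 16.1 ± 3.88. The helicase subunits Mcm2, Mcm3, dpa (the fly Mcm4), Mcm5 and Mcm6 spanned 10.8 to 14.6 FPKM, and Mcm7, their partner in the same ring, was lower at 3.80 ± 1.27. In Ensembl's annotation 81.7% of the exon bases of Mcm7 lie opposite the antisense RNA gene CR45871, which was listed with 0 counts in every library. Similarly 43.9% of the exon bases of Cdk2 overlap CG17267 on the other strand, listed with 1 to 4 counts. The sources used here do not say whether counting used strand, so the levels of Mcm7 and Cdk2 are uncertain. The other members share at most 15.3% of their exon bases with a neighbour.

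**Figure D1:**
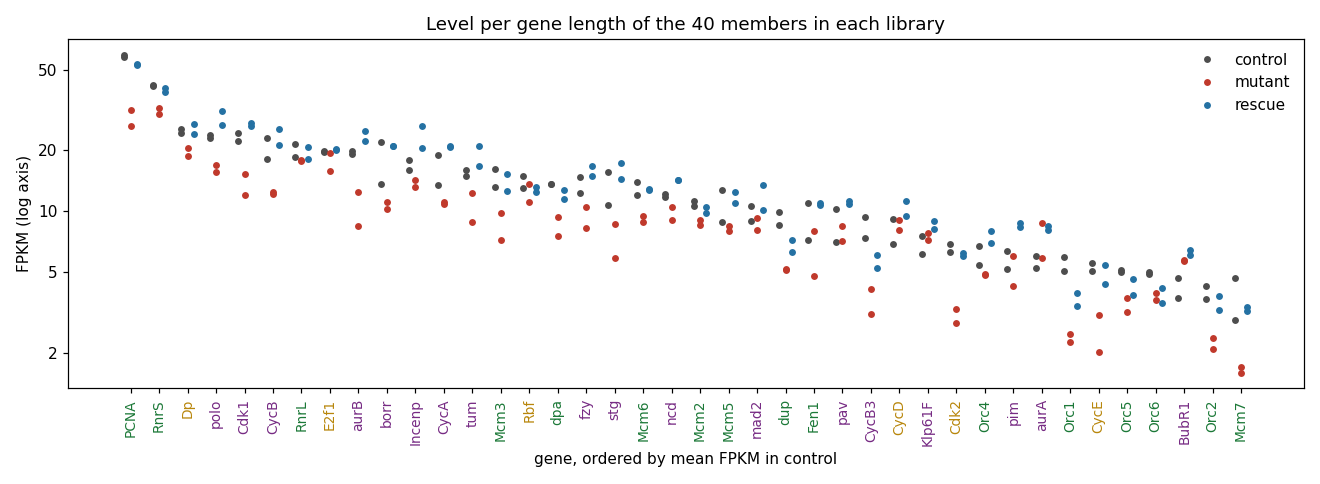
FPKM of each of the 40 genes (vertical log axis) in each of the 6 libraries, ordered by the mean in control; each point is 1 library and the colour of a name gives its class (green for replication, ochre for G1/S control, purple for mitosis). PCNA is highest at 58.3 FPKM in control and Mcm7 lowest at 3.80, and the red mutant points lie under both control points for 31 of the 40 genes. By CPM, 30.2% of all tested genes did so.

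Comparing mutant with control asks which of these genes differed in larvae with fiomut on both second chromosomes, and the groups also differ in CyO and the U6 mutation. All 16 replication genes had lower fitted levels in mutant (RnrL not with plain library totals), and 4 of them fell: PCNA, Mcm7, Orc1 and dup. Of the 6 G1/S genes the pair that starts S phase, CycE and Cdk2, fell. Of the 18 mitosis genes only CycB3 fell, and none of the 40 genes rose. The background is 7.04% of all tested genes called lower in mutant, and CycB3 alone of the mitosis genes is no more than that share. The median log2 fold change was -0.52 over the replication genes, -0.25 over the G1/S genes and -0.50 over the mitosis genes, against -0.02 over all genes tested. The G1/S median was -0.15 without mutant 1 and -0.05 with plain library totals, which move the median of all genes by 0.19. Both mutant libraries lay below both control libraries for 15 of 16 replication genes, 4 of 6 G1/S genes and 12 of 18 mitosis genes, where 30.2% of all tested genes did so. The counts depended on the tool and scaling. With plain library totals only PCNA and Orc1 stayed called, and CycE, Cdk2, Mcm7, dup and CycB3 were lost (adjusted p = 0.0851, 0.0560, 0.0931, 0.126 and 0.0519). DESeq2 called 7 replication and 5 mitosis genes lower, and size factors of relative log expression gave 4 mitosis genes.

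Among the genes of the replication fork, PCNA (2R, 20261754 to 20262883) gave the clearest difference. It measured 60.3 and 64.2 CPM in control, 34.4 and 28.2 CPM in mutant and 57.7 and 57.9 CPM in rescue. It fell by 0.99 on the log2 scale in mutant (SE 0.19, adjusted p = 0.0150), a 1.99-fold difference, and the mutant libraries stood well apart from the other 4. Mcm7 (3L, 8891596 to 8894310) measured 6.99 and 11.7 CPM in control, 3.99 and 4.18 CPM in mutant and 8.03 and 8.41 CPM in rescue. It fell by 1.19 (SE 0.31, adjusted p = 0.0415), with controls that differed more from each other than the mutant libraries did, and without control 2 the difference was -0.77. The call was lost with the replicate number as a block (adjusted p = 0.0523), in a fit of mutant and control alone (0.0622) and with limma on FPKM (0.0548). The other 5 helicase genes were not called, though both mutant libraries lay below both controls for each of them. Their log2 differences were -0.77 for Mcm3 (SE 0.24, adjusted p = 0.0687), -0.68 for dpa (SE 0.19, adjusted p = 0.0534), -0.48 for Mcm6, -0.38 for Mcm5 and -0.29 for Mcm2. Fen1, the nuclease that trims flaps from Okazaki fragments, overlapped between groups, at 9.69 and 15.3 CPM in control and 11.2 and 6.57 CPM in mutant.

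At the origins the strongest difference was in Orc1, the subunit of the origin recognition complex whose level rises and falls with the cell cycle in flies. Orc1 (2R, 7522437 to 7525716) measured 15.6 and 19.0 CPM in control, 7.98 and 7.11 CPM in mutant and 11.0 and 12.7 CPM in rescue, so that the 3 groups did not overlap. It fell by 1.20 in mutant (SE 0.24, adjusted p = 0.0176). The Cdt1 gene dup (2R, 15376619 to 15380988) measured 26.3 and 31.7 CPM in control, 16.6 and 16.1 CPM in mutant and 23.2 and 20.1 CPM in rescue, again with no overlap between the 3 groups. It fell by 0.82 (SE 0.21, adjusted p = 0.0354), a call lost with the replicate block (adjusted p = 0.0521) and in a fit of mutant and control alone (0.0685). The other 4 origin recognition genes were not called, at log2 differences of -0.83 for Orc2 (adjusted p = 0.0729), -0.54 for Orc5, -0.36 for Orc6 and -0.31 for Orc4. Both ribonucleotide reductase genes, which supply deoxynucleotides, went without a call. RnrL measured 46.7 and 56.1 CPM in control and 46.6 and 46.3 CPM in mutant (log2 -0.14, SE 0.19), and RnrS measured 65.8 and 67.0 CPM in control and 52.6 and 48.2 CPM in mutant (log2 -0.40, SE 0.17, adjusted p = 0.153).

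Among the G1/S genes the kinase pair differed and the transcription factors showed no call. CycE (2L, 15727581 to 15748150) measured 25.3 and 28.4 CPM in control, 10.4 and 15.4 CPM in mutant and 22.5 and 28.1 CPM in rescue. It fell by 1.05 in mutant (SE 0.26, adjusted p = 0.0332). Its kinase Cdk2 (3R, 20735623 to 20738414) measured 14.2 and 16.1 CPM in control, 6.59 and 7.58 CPM in mutant and 14.1 and 14.7 CPM in rescue, and fell by 1.10 (SE 0.23, adjusted p = 0.0198). For both genes the mutant libraries lay below all other libraries. E2f1 measured 126 and 128 CPM in control against 104 and 125 CPM in mutant (log2 -0.15, SE 0.20). Dp measured 80.3 and 79.0 CPM against 60.8 and 65.6 CPM (log2 -0.33, SE 0.18, adjusted p = 0.234). Rbf differed by -0.17 (SE 0.19), and CycD, the cyclin of growth-driven cycle entry, by 0.10 (SE 0.23), both with overlapping libraries.

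Among the mitotic cyclins and kinases, CycB3 (3R, 24867934 to 24870816) was the called gene. It measured 21.0 and 27.5 CPM in control, 9.13 and 11.8 CPM in mutant and 17.9 and 15.5 CPM in rescue, 3 groups without overlap. It fell by 1.21 in mutant (SE 0.25, adjusted p = 0.0203). Cdk1, aurB and CycB missed the threshold narrowly, at log2 differences of -0.75 (SE 0.21, adjusted p = 0.0538), -0.87 (SE 0.25, adjusted p = 0.0536) and -0.72 (SE 0.21, adjusted p = 0.0546). The phosphatase gene stg (-0.85), CycA (-0.55) and polo (-0.50) were lower in both mutant libraries without a call. The centrosome kinase gene aurA went the other way, at 9.24 and 8.40 CPM in control and 14.0 and 9.31 CPM in mutant (log2 0.40, SE 0.27, adjusted p = 0.327). So did the spindle checkpoint gene BubR1, at 17.0 and 21.9 CPM in control and 26.6 and 26.5 CPM in mutant (log2 0.45, SE 0.20, adjusted p = 0.172). The remaining passenger, checkpoint and anaphase genes lay between -0.73 (borr) and -0.16 (mad2 and pim). The 4 spindle and cytokinesis genes ranged from -0.53 for tum, the RacGAP of centralspindlin, to 0.15 for the kinesin gene Klp61F, without a call.

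**Figure D2:**
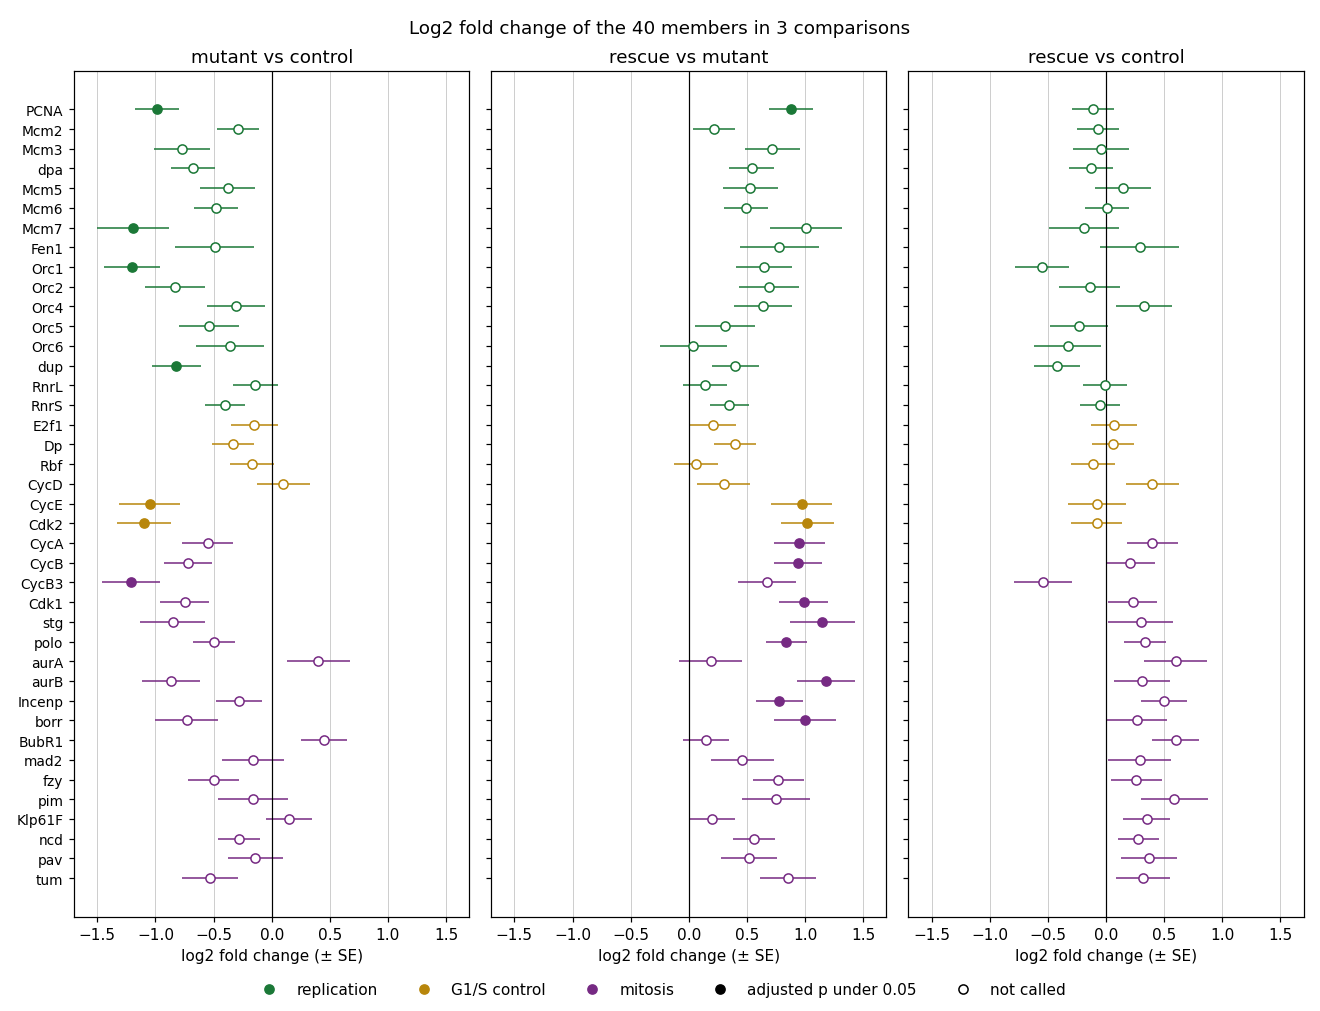
Log2 fold change of each of the 40 genes with its standard error (horizontal bars) in 3 comparisons, from the edgeR fit; filled points have an adjusted p under 0.05. In mutant against control 7 points are filled, all to the left, in rescue against mutant 11 are filled, all to the right, and in rescue against control none is.

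The 7 calls between mutant and control rested on few libraries. Without mutant 2 none remained (adjusted p = 0.0526 to 0.150), without mutant 1 only PCNA did (0.0412, against 0.0756 to 0.165 for the others), and without control 2 only PCNA did (0.0496, against 0.0544 to 0.138). CycE was lost without control 1 (adjusted p = 0.0525), Mcm7 and dup without rescue 1 (0.0665 and 0.0729), and CycE, Mcm7 and dup without rescue 2 (0.0508, 0.0669 and 0.0745). All 7 differences kept their sign in these fits. Without control 2, over the mitosis genes, the median moved from -0.50 to -0.28.

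Comparing rescue with mutant asks what differed in larvae that also carried the [U6+] element. All 40 genes had higher fitted levels in rescue, 11 of them rose, and none fell. Here the mitosis genes held most of the calls, with 8 of 18 (CycA, CycB, Cdk1, stg, polo, aurB, Incenp and borr), followed by CycE and Cdk2 of 6 G1/S genes and PCNA of 16 replication genes. The background is 7.61% of all tested genes called higher in rescue, and PCNA alone of the replication genes is no more than that share. The median log2 fold change was 0.77 over the mitosis genes, 0.35 over the G1/S genes and 0.54 over the replication genes, against 0.00 over all genes tested. Both rescue libraries lay above both mutant libraries for 17 of 18 mitosis genes, 5 of 6 G1/S genes and 15 of 16 replication genes, where 33.8% of all tested genes did so. This comparison uses the same mutant libraries as the one above, so the values of both are set side by side and are not independent.

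The cyclins and kinases of mitosis, with String, held 6 of the 8 mitosis calls. The aurora kinase gene aurB (2L, 10856797 to 10858094), the enzyme of the chromosomal passenger complex, measured 15.1 and 10.03 CPM in mutant, 26.7 and 30.2 CPM in rescue and 23.0 and 22.9 CPM in control. It rose by 1.18 on the log2 scale in rescue (SE 0.25, adjusted p = 0.0227), and both rescue libraries lay above both controls. The String gene stg (3R, 29251826 to 29255800), whose phosphatase triggers entry into mitosis, measured 18.3 and 26.6 CPM in mutant, 45.02 and 54.4 CPM in rescue and 32.2 and 48.5 CPM in control, and rose by 1.15 (SE 0.28, adjusted p = 0.0362). Its substrate Cdk1 (2L, 10384739 to 10386262) measured 16.9 and 13.0 CPM in mutant, 28.9 and 30.2 CPM in rescue and 23.5 and 26.7 CPM in control, and rose by 0.99 (SE 0.21, adjusted p = 0.0248). For stg the rescue libraries overlapped the controls, and for Cdk1 they lay above both.

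The mitotic cyclins, which activate Cdk1, had the same order of group means for CycA and CycB. CycA (3L, 11826719 to 11833578) measured 33.0 and 31.5 CPM in mutant, 62.1 and 62.8 CPM in rescue and 38.3 and 55.9 CPM in control, and rose by 0.95 (SE 0.22, adjusted p = 0.0307). CycB (2R, 22803521 to 22806948) measured 38.6 and 37.3 CPM in mutant, 78.9 and 66.3 CPM in rescue and 54.3 and 71.0 CPM in control, and rose by 0.94 (SE 0.21, adjusted p = 0.0263). The libraries within mutant were close for both cyclins, and the controls were spread. CycB3 did not rise with them to the threshold (log2 0.67, SE 0.25, adjusted p = 0.109). The mitotic kinase gene polo (3L, 20309654 to 20313466) measured 47.5 and 50.5 CPM in mutant, 80.7 and 95.3 CPM in rescue and 69.5 and 69.1 CPM in control, and rose by 0.84 (SE 0.18, adjusted p = 0.0244). For aurA the difference was 0.19 (SE 0.27), with overlapping libraries.

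Of the chromosomal passenger complex, which corrects faulty attachments of chromosomes to the spindle, aurB, Incenp and borr all rose. The scaffold gene Incenp (2R, 7278467 to 7281795) measured 41.2 and 37.6 CPM in mutant, 59.3 and 76.4 CPM in rescue and 44.3 and 51.5 CPM in control, and rose by 0.78 (SE 0.20, adjusted p = 0.0425). The Borealin gene borr (2L, 9251472 to 9253118) measured 13.6 and 14.3 CPM in mutant, 27.8 and 27.9 CPM in rescue and 17.4 and 28.8 CPM in control, and rose 1.99-fold (SE 0.27 on the log2 scale, adjusted p = 0.0467). The groups mutant and rescue did not overlap for either gene. The Incenp call was lost in a fit with the replicate number as a block (adjusted p = 0.0505) and with limma on FPKM (0.0531). The borr call was lost with plain library totals (adjusted p = 0.0570) and with limma on FPKM (0.0512). The anaphase activator gene fzy, the fly Cdc20, was close to the threshold (log2 0.77, SE 0.22, adjusted p = 0.0586), as was tum (log2 0.85, SE 0.24, adjusted p = 0.0510). The securin gene pim (0.75), the spindle checkpoint genes mad2 (0.46) and BubR1 (0.15), and the motor genes ncd (0.56), pav (0.52) and Klp61F (0.20) were not called.

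In the replication and G1/S classes, PCNA rose by 0.88 (SE 0.19, adjusted p = 0.0225), CycE by 0.97 (SE 0.26, adjusted p = 0.0445) and Cdk2 by 1.02 (SE 0.23, adjusted p = 0.0257), at the library values given above. The CycE call was lost with limma on FPKM (adjusted p = 0.0704). Mcm7 (log2 1.01, SE 0.31, adjusted p = 0.0689), Orc1 (0.65, SE 0.24, adjusted p = 0.103) and dup (0.40, SE 0.20, adjusted p = 0.214) were not called in this comparison. The other replication genes ranged from 0.04 for Orc6, whose libraries overlapped at 3.93 and 3.52 CPM in mutant and 4.16 and 3.49 CPM in rescue, to 0.78 for Fen1. E2f1, Dp, Rbf and CycD lay between 0.06 and 0.40.

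The 11 calls between rescue and mutant were kept without either control, but rested on each of the 4 libraries compared. Without mutant 1 only aurB remained called (adjusted p = 0.0439, against 0.0584 to 0.188 for the others). None of the 11 remained without mutant 2 (0.0622 to 0.152), without rescue 1 (0.0642 to 0.148) or without rescue 2 (0.0831 to 0.292). All 11 differences kept their sign in these fits, at log2 0.59 to 1.50.

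**Figure D3:**
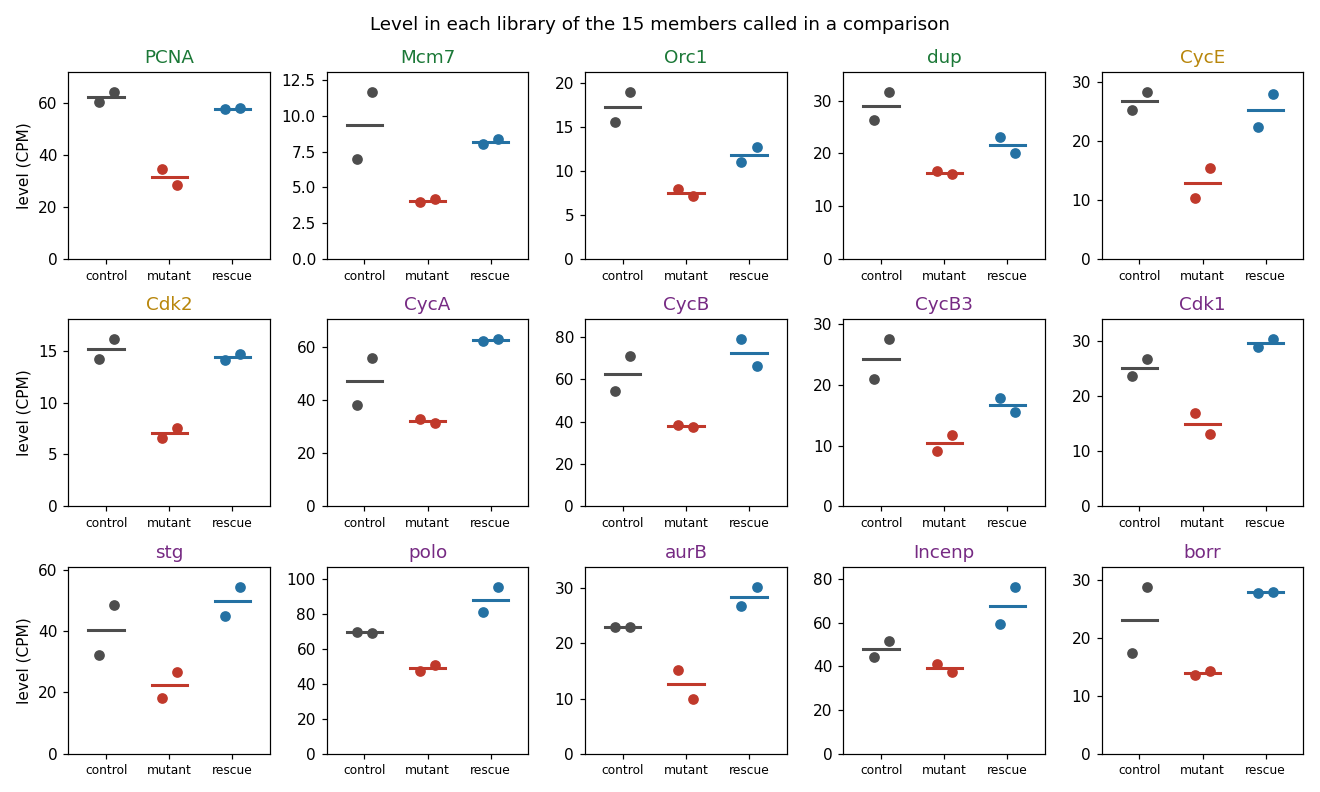
Level in CPM (vertical axes, each from 0) of the 15 genes called in mutant against control or in rescue against mutant; each point is 1 library and the short lines are group means of 2 libraries. The mutant libraries (red) lie below all libraries of the other groups for all 15 genes, and rescue lies between mutant and control without overlap for PCNA, Orc1, dup and CycB3. The genes were chosen by their calls against mutant, so the separation of the mutant libraries follows in part from that choice.

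Comparing rescue with control asks which genes differed between larvae with the element and the control larvae. These groups also differ in the number of fiomut chromosomes, in CyO and in the U6 mutation. None of the 40 genes was called by edgeR in this comparison, against 0.640% of all tested genes called in either direction, and 0 were called by DESeq2 or by limma on FPKM. At an unadjusted p under 0.05 Orc1 was lower (log2 -0.55, SE 0.23), and BubR1 (0.60, SE 0.20) and Incenp (0.50, SE 0.20) were higher. A p above the threshold does not show that rescue and control were alike. The summed mitosis level of rescue lay above both controls, at 673 and 709 against 500 and 609 CPM. The summed replication level of rescue lay between the controls, at 438 and 430 against 423 and 488 CPM. For 13 of 18 mitosis genes both rescue libraries lay above both controls, where 30.7% of all tested genes did so, and their median log2 difference was 0.31. For 8 of 16 replication genes (PCNA, Mcm2, dpa, Orc1, Orc5, Orc6, dup and RnrS) both rescue libraries lay below both controls, for RnrS by less than the printed digits (65.78 against 65.83 CPM), where 23.5% of all tested genes did so. With plain library totals the difference was above 0 for PCNA, Mcm2, dpa, Orc5 and RnrS. The median over the replication genes was -0.09, but 0.22 with plain library totals, a scaling that moves the median of all genes from 0.07 to 0.38. Without control 2 the medians were 0.49 over the mitosis genes and -0.02 over the replication genes, and without control 1 they were 0.18 and -0.15. CycB3 was the exception among the mitosis genes, with both rescue libraries below both controls (log2 -0.54, SE 0.25, adjusted p = 0.300).

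The ratio of summed mitosis to summed replication levels within a library does not depend on how libraries are scaled to each other. The 16 replication genes summed to 423 and 488 CPM in control, 319 and 299 CPM in mutant and 438 and 430 CPM in rescue. The 18 mitosis genes summed to 500 and 609 CPM in control, 416 and 402 CPM in mutant and 673 and 709 CPM in rescue. Their ratio was 1.18 and 1.25 for control, against 1.30 and 1.35 for mutant and 1.54 and 1.65 for rescue. The 3 groups did not overlap, and rescue was highest. The ratio of the G1/S sum to the replication sum was 0.729 and 0.675 for control, against 0.761 and 0.955 for mutant and 0.765 and 0.750 for rescue, with mutant 2 apart from the rest. With 2 libraries a group such ratios are a description and were not tested.

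**Figure D4:**
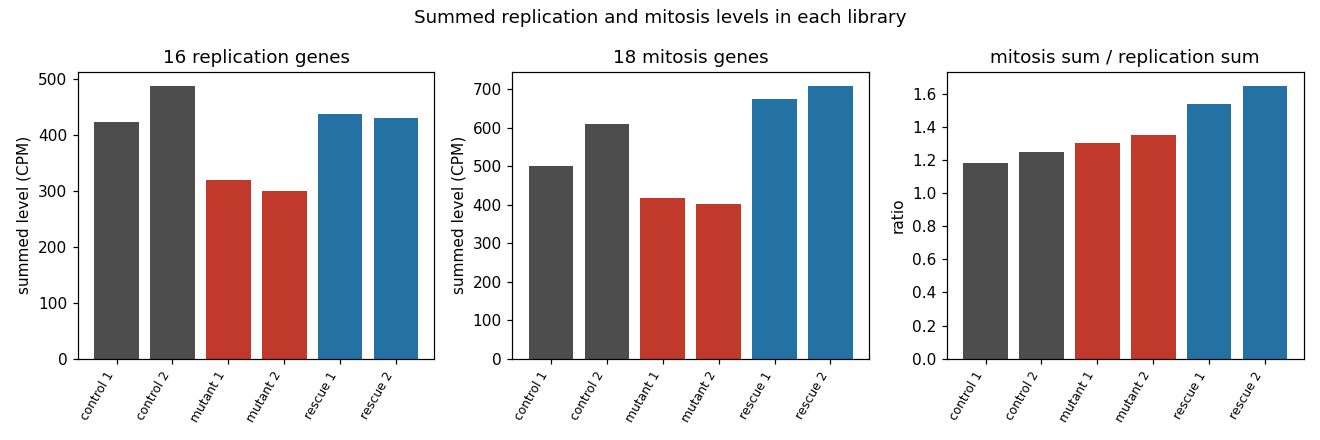
Summed level in CPM of the 16 replication genes and of the 18 mitosis genes, and the ratio of the mitosis sum to the replication sum, in each of the 6 libraries (bars from 0). Both sums are lowest in the mutant libraries, and the ratio is 1.54 and 1.65 in rescue against 1.18 to 1.35 in the other libraries.

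In further genes of the same processes the share of calls was no larger than over all tested genes, where 7.04% fell and 9.94% rose in mutant against control, and 8.47% fell and 7.61% rose in rescue against mutant. The called genes below are therefore listed as single values. Of 54 other genes of replication and its control 52 were tested. This list mixes replication genes with cell cycle regulators such as dap, Cks85A, E2f2 and Cdk4. In mutant against control Cdc6, which helps to load the helicase, and DNApol-alpha180, the catalytic subunit of the priming polymerase, fell by 0.95 and 0.81 on the log2 scale (SE 0.26 and 0.22, adjusted p = 0.0471 and 0.0451). RpA-70, the large subunit of the protein that coats single-stranded DNA, rose by 0.88 (SE 0.22, adjusted p = 0.0352). The median of this list was -0.46, and 44 of 52 genes had lower means in mutant. In rescue against mutant dap, the inhibitor of cyclin E with Cdk2, and Cks85A, a small subunit that binds such kinases, rose by 1.02 and 0.93 (SE 0.25 and 0.24, adjusted p = 0.0356 and 0.0441), and the median was 0.39.

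Of 88 other mitosis genes 87 were tested. In mutant against control the spindle pole gene asp and the checkpoint gene Mad1 fell by 1.30 and 0.99 (SE 0.22 and 0.27, adjusted p = 0.0105 and 0.0484), and the kinesin gene cana rose by 1.22 (SE 0.21, adjusted p = 0.0106). The median was -0.12, nearer to 0 than over the 18 mitosis members. In rescue against mutant 6 rose, and the 4 largest differences were in the kinesin gene nod (1.09) and in 3 septin genes of cytokinesis, Sep2 (1.05), pnut (0.96) and Sep1 (0.93), with adjusted p = 0.0497, 0.0368, 0.0355 and 0.0451. The deposited table lists Sep1 and Sep2 as 1-Sep and 2-Sep. The 1 gene that fell, cana (-0.91, adjusted p = 0.0283), is named after its value was seen. In rescue against control 79 of 87 genes had higher fitted levels in rescue, against 55.7% of all tested genes, with a median of 0.24. None was called by edgeR, and DESeq2 called 1 each way. At an unadjusted p under 0.05, 9 were higher and 1 was lower, against 9.16 and 9.67% of all tested genes. Leaving out 1 library at a time, the asp call was lost without mutant 1 (adjusted p = 0.0708) and the rise of cana in mutant without mutant 2 (0.0578). The calls on Cdc6, DNApol-alpha180 and Mad1 were lost without any 1 of the 6 libraries (up to 0.176, 0.165 and 0.195), and that on RpA-70 without any except control 2 (up to 0.130). The 7 calls named between rescue and mutant were lost without any 1 of the 4 libraries compared (up to 0.237).

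Markers of neuroblasts and imaginal discs differed in the same directions, and germline markers did not. Over all tested genes, 7.04% fell and 9.94% rose in mutant against control, and 8.47% fell and 7.61% rose in rescue against mutant. Of 10 neuroblast markers 7 fell in mutant against control and 7 rose in rescue against mutant, with medians of -1.24 and 1.26. Their summed level was 672 and 785 CPM in control, 308 and 426 CPM in mutant and 729 and 847 CPM in rescue. Syp, brat, grh and pros held most of this sum, with Syp alone at 334 and 366 CPM in control and 166 and 227 CPM in mutant. The markers wor and ase, at 4.73 to 6.58 CPM in control, added little to it, and fell by 1.86 and 1.65 in mutant. Of 16 imaginal disc markers 3 fell in mutant and 7 rose in rescue against mutant, with medians of -0.59 and 0.83 and sums of 502 and 610, 352 and 448, and 625 and 668 CPM in control, mutant and rescue. None of the neuroblast and disc markers was at 0 in any library. The 10 germline markers were not lowest in mutant, at 296 and 255 CPM in control, 323 and 496 CPM in mutant and 339 and 320 CPM in rescue, and of the 9 tested 1 fell in mutant. Their medians were -0.02 in mutant against control and -0.30 in rescue against mutant, with 8 of 9 lower in rescue and no call by edgeR (1 lower at an unadjusted p under 0.05, 0 by DESeq2). In rescue against control the sum was higher, but the median was -0.61, with 6 of 9 lower and no call by edgeR. At an unadjusted p under 0.05, 3 were lower there, and DESeq2 called 1 lower. The 10 primary spermatocyte markers summed to 32.6 to 53.3 CPM over all libraries without a call by edgeR in any comparison (1 lower in mutant than in control, 3 lower in rescue than in control and 1 lower in rescue than in mutant at an unadjusted p under 0.05). Genes that mark stage and gut moved further in mutant against control. The median was -4.03 over 10 salivary glue genes and 4.47 over 8 genes of gut enzymes. Of these, 7 glue genes fell and 7 gut genes rose. In rescue against mutant 6 glue genes rose, 3 of the 10 had lower fitted levels, and 5 gut genes fell. The part of cell makeup in the differences of the 40 genes was not tested.

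**Figure D5:**
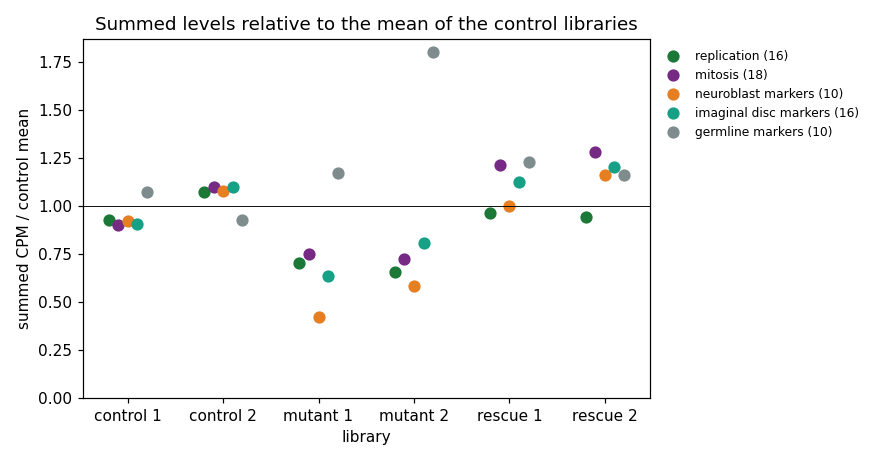
Summed CPM of the replication genes, the mitosis genes and 3 lists of cell type markers in each library, divided by the mean of the 2 control libraries (horizontal line at 1); each point is 1 library. In the mutant libraries the neuroblast markers stand at 0.423 and 0.585 of control, lower than the replication genes at 0.700 and 0.656 and the mitosis genes at 0.750 and 0.725. Most of the neuroblast sum comes from Syp, brat, grh and pros. The imaginal disc markers stand at 0.633 and 0.806, in mutant 2 above both gene classes, and the germline markers lie at 1.17 and 1.80.

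The control larvae differed from the others also in carrying CyO, and 21 of the 40 genes lie on the second chromosome. In mutant against control 4 of these 21 and 3 of the 19 genes elsewhere fell, with medians of -0.53 and -0.38. Over all tested genes 7.04% fell. CyO changed together with the other alleles in that comparison, so its part cannot be told apart. In rescue against mutant, where neither group carried CyO per the labels, 7 of 21 and 4 of 19 rose, with medians of 0.75 and 0.53. Over all tested genes 7.61% rose.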

How the data were processed

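Raw read counts were taken as deposited; they are whole numbers whose totals differ between libraries. The deposited FPKM values are the authors' levels per gene length and library size. No label or header used here names the aligner, counting tool, strand setting or build. The starts of all 40 genes equal those of RefSeq Release 6, so positions are printed as deposited. The authors' table of group means was not used. Groups were taken from the sample titles.

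Counts were tested with edgeR 4.0.16 in R 4.3.3 (quasi-likelihood test, TMM factors, all 6 libraries and 3 groups in 1 fit, no block) on the 11866 genes that passed filterByExpr with a minimum count of 10, with Benjamini-Hochberg adjustment over all of them. The biological coefficient of variation was 0.269, with 3 residual degrees of freedom. CPM use TMM-scaled library sizes; log2 differences between libraries use a prior count of 2. Each SE is the log2 fold change divided by the root of the F statistic. The fit was also run on simulated counts in which all genes had the same spread. Such counts leave out differences in spread between genes, so these runs do not vouch for the calls here. Alternatives were DESeq2 1.42.0, limma 3.58.1 on log2(FPKM + 1), other scalings and filters, a replicate block, fits of 2 groups and each library left out.

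The members and lists were chosen with earlier results of these data known. Genes named in full are those called in a comparison, with the 4 largest called differences of each wider list. The shared exon bases come from Ensembl release 115. With 2 libraries a group, precision is limited mainly by their spread rather than by depth.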

Additional observations from a re-analysis of the deposited data

How the results depend on the processing

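The class medians kept their direction in every alternative for mutant against control and for rescue against mutant. Plain library totals shift the median of all genes by 0.19 in mutant against control, 0.38 in rescue against control and 0.11 in rescue against mutant. In the same order they gave medians of -0.33, 0.22 and 0.65 for replication, -0.05, 0.30 and 0.45 for G1/S control and -0.30, 0.63 and 0.89 for mitosis. With limma on FPKM the medians of rescue against mutant were 0.47 for replication and 0.71 for mitosis. Leaving out 1 library at a time, the medians in mutant against control ranged from -0.66 to -0.44 for replication, -0.35 to -0.15 for G1/S control and -0.51 to -0.28 for mitosis. In rescue against mutant they ranged from 0.48 to 0.56, 0.26 to 0.44 and 0.69 to 0.87, and in rescue against control from -0.15 to -0.02, -0.05 to 0.04 and 0.18 to 0.49.

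Of the 4 replication genes called between mutant and control, the count became 2 with library totals, 2 with the replicate block, 2 with a fit of those groups alone and 7 with DESeq2, and 0 to 4 with a library left out. The 2 G1/S calls became 0 with library totals and 0 to 2 with a library left out. The 1 mitosis call became 4 with RLE size factors, 0 with library totals, 2 with no filter, 2 with the replicate block, 5 with DESeq2, 3 with limma and 0 to 5 with a library left out. Between rescue and mutant, the 1 replication call became 2 with a fit of those groups alone and 2 with DESeq2, and 0 to 2 with a library left out. The 2 G1/S calls became 1 with limma and 0 to 2 with a library left out, and the 8 mitosis calls 6 with limma and 0 to 8 with a library left out. Over all genes, the 76 calls between rescue and control became 135 with library totals, 478 with no filter, 117 with the replicate block, 11 with a fit of those groups alone and 1026 with DESeq2. With a library left out the calls over all genes numbered 611 to 1930 in mutant against control, 12 to 778 in rescue against control and 400 to 2504 in rescue against mutant. The cause of these shifts was not tested.

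Library totals turned the sign of 12 differences between rescue and control, to 0.23 for Cdk2, 0.23 for CycE, 0.24 for Mcm2, 0.26 for Mcm3, 0.10 for Mcm7, 0.16 for Orc2, 0.08 for Orc5, 0.20 for PCNA, 0.20 for Rbf, 0.30 for RnrL, 0.27 for RnrS and 0.18 for dpa. They turned 6 between mutant and control, to 0.06 for E2f1, 0.03 for Rbf, 0.05 for RnrL, 0.03 for mad2, 0.04 for pav and 0.03 for pim. Mcm6 in rescue against control was -0.02 with RLE size factors, -0.04 with those groups alone, -0.03 with DESeq2 and -0.02 with limma. With a library left out, the sign also turned in rescue against control for Cdk2 (-0.16 to 0.02), CycE (-0.25 to 0.07), Dp (-0.02 to 0.14), Mcm3 (-0.19 to 0.13), Mcm5 (-0.10 to 0.47), Mcm6 (-0.11 to 0.15), Mcm7 (-0.50 to 0.23), Rbf (-0.22 to 0.02), RnrL (-0.13 to 0.13) and borr (-0.04 to 0.68). In mutant against control it turned for CycD (-0.09 to 0.34), Klp61F (-0.01 to 0.33), pav (-0.40 to 0.18) and pim (-0.43 to 0.08), and in rescue against mutant for Orc6 (-0.09 to 0.16), Rbf (-0.08 to 0.20) and aurA (-0.07 to 0.51). None of these differences was called in the fit of all 6 libraries.

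The replicate block lost Mcm7 and dup in mutant against control (adjusted p = 0.0523 and 0.0521). Deviations of libraries with the same number correlated at 0.036, 0.055 and 0.016, so the numbers were not taken to pair the samples.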
